A study of Oryza sativa with 24 samples.

Results

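Inflorescences of 2 mm from the rice mutant tap were set against WT inflorescences of the same length, both kept at high temperature. The groups compared are 6 of the study's 24 RNA-sequencing libraries, 3 of tap and 3 of WT, chosen by the genotype, length and temperature that the labels give. They were tested in 1 model with the 6 libraries of 3 mm at high temperature, so the spread behind each p-value was estimated over 12 libraries. The study crossed genotype with inflorescence length, 2 mm or 3 mm, and with high or low temperature, and its title names the gene THERMO-SENSITIVE BARREN PANICLE. All groups carry the label 9522 as their line. The mutant is called tap in the genotype field and ild in the sample titles. The sources used here give neither the mutated locus nor the temperatures in degrees, the length of the treatment, the age of the plants or the number of panicles per library. The counts of the mutated gene could therefore not be used as a check of the labels. Nothing says that replicates came from separate plants. The p-values therefore measure the spread between these libraries, which may be technical.

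In a rice panicle the inflorescence meristem forms branch meristems, which become spikelet meristems and then floral meristems. Floral organs are set by complexes of MADS-box transcription factors, in which SEPALLATA-like (E-class) proteins bind B-class proteins of lodicules and stamens, C-class proteins of stamens and carpels and D-class proteins of ovules. YABBY and HD-ZIP III factors pattern the lateral organs, and cytokinin, made active by LOG and broken down by cytokinin oxidases, sustains the meristems.

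The 6 libraries held 19819257 to 21238557 counts each. Levels are given as CPM, counts scaled to a common library size with TMM factors. CPM are not per gene length and are therefore compared only within a gene. A locus was called changed at an adjusted p under 0.05 in edgeR's quasi-likelihood test over 21396 loci. By that rule 7030 loci (32.86%) differed, 3791 (17.72%) higher and 3239 (15.14%) lower in tap, with a median log2 difference of 0.01 over all tested loci. Changes of more than 2-fold numbered 1330 higher (6.216%) and 657 lower (3.071%). Without tap replicate 3 the number called was 4867. In a principal component analysis of the 12 high-temperature libraries, the first component held 62.8% of the variance and separated the genotypes. The 8 inflorescence markers summed to 2288 to 2702 CPM in tap and 2273 to 2479 CPM in WT. Markers of leaf (5 genes) summed to 52.6 to 62.6 and 50.7 to 58.1 CPM, those of anther tapetum and pollen (4 genes) to 5.56 to 6.80 and 6.48 to 8.11 CPM, and those of root and grain (3 genes) to 0.974 to 1.89 and 0.488 to 2.02 CPM. The ranges of the genotypes overlapped in each case. A sum is weighted to its highest genes and can hide opposite changes, so overlap does not show that the tissues were alike. Among the inflorescence markers, OsMADS15 and OSH1 were called higher in tap and OsMADS1 lower. Among the leaf markers 2 were higher and 1 lower. In the anther list and in the root and grain list, 2 markers each were under 1 CPM in all 6 libraries. The grain gene GluA1 had 0 counts in all WT libraries. The 5 leaf markers are those whose names could be checked. The light-harvesting genes, PSBO, PSBS, PSAD, PSAF and RBCS4 could not be checked by name and were left out.

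Genes were read from 23 lists of known rice genes. Members whose names could not be checked were left out, so a called share need not cover a whole gene family. Of the rest, 202 members were tested. In tap 27 of these were higher, 72 were lower and 103 were not called. The called share was 49.0%, beside 32.86% of all loci, and the median log2 difference was -0.24. The lists were chosen with earlier results of these data known, so this share is a description of them.

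Floral organ identity genes showed the largest falls among the lists. Of 7 SEPALLATA-like and AGL6-like MADS-box genes, 5 were lower in tap (71.4%, beside 15.14% of all loci) and none was higher, with a median log2 difference of -2.45. OsMADS1 (LOC_Os03g11614), the E-class gene known for lemma and palea and for spikelet meristem fate, stood at 51.6, 62.3 and 54.7 CPM in tap and at 298, 304 and 318 CPM in WT. All tap libraries lay far below all WT libraries, a 5.46-fold fall (log2 difference -2.45 ± 0.11 SE, adjusted p = 1.6e-11). In tissue sequenced in bulk, fewer cells of a type and less RNA per cell cannot be told apart, which holds for every level given here.

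The E-class genes OsMADS7 (LOC_Os08g41950) and OsMADS8 (LOC_Os09g32948), which act in the inner floral organs, were close to absent in tap. OsMADS7 had 0.325, 0.204 and 0.255 CPM in tap, from 16 counts in all, and 31.2, 21.6 and 30.2 CPM in WT (-6.68 ± 0.27, adjusted p = 4.6e-12). OsMADS8 had 0.464, 1.02 and 0.817 CPM in tap and 25.8, 20.5 and 26.9 CPM in WT (-4.99 ± 0.21, adjusted p = 8.6e-12). The lowest WT library of each gene lay far above the highest tap library. The AGL6-like gene OsMADS6 (LOC_Os02g45770), which acts in floral organ identity and floral meristem fate, fell from 98.4 ± 5.35 CPM (SD, n = 3) in WT to 15.2 ± 1.93 CPM (-2.69 ± 0.13, adjusted p = 6.7e-11). Its relative OsMADS17 (LOC_Os04g49150) fell from 47.9 ± 2.45 to 8.85 ± 2.83 CPM (-2.44 ± 0.17, adjusted p = 5.4e-09).

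The other E-class members of the list are active earlier, in branch and spikelet meristems, and did not share these falls. OsMADS34 (LOC_Os03g54170), known for limiting panicle branching, had 165, 168 and 172 CPM in tap and 160, 156 and 146 CPM in WT, and was not called (0.13 ± 0.09, adjusted p = 0.29). Its groups did not overlap, and it was called higher in tap at 3 mm (0.49 ± 0.09, adjusted p = 0.00061). OsMADS5 (LOC_Os06g06750) had 54.6, 45.7 and 60.2 CPM in tap and 47.2, 43.7 and 38.4 CPM in WT, with overlapping groups (0.31 ± 0.13, adjusted p = 0.072). It passed the threshold without tap replicate 2 (0.41, adjusted p = 0.029).

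All 7 tested B-, C- and D-class genes, counted together with the carpel gene DL, were lower in tap, beside 15.14% of all loci, with a median log2 difference of -4.36. OsMADS32, a floral organ identity gene of the same list, could not be checked by name and was left out. OsMADS13 and OsMADS58 passed the filter on low counts only through WT libraries, so only a fall could be called for them. Of the B-class genes, OsMADS16 (LOC_Os06g49840), the rice counterpart of APETALA3, had 1.67, 2.15 and 1.99 CPM in tap and 31.9, 36.2 and 39.3 CPM in WT (-4.21 ± 0.16, adjusted p = 1.9e-12). OsMADS4 (LOC_Os05g34940), of the PISTILLATA type, had 1.39, 0.920 and 1.38 CPM in tap and 22.6, 21.4 and 32.4 CPM in WT (-4.36 ± 0.20, adjusted p = 2.5e-11). The groups stood an order of magnitude apart for both genes. OsMADS2 (LOC_Os01g66030), the other PISTILLATA-type gene and known for lodicules, kept more of its level, at 19.0 ± 0.833 CPM against 58.6 ± 5.94 CPM (-1.62 ± 0.11, adjusted p = 6.4e-09).

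Among the C- and D-class genes, OsMADS3 (LOC_Os01g10504), which acts in stamen identity, had 0.325, 0.869 and 1.23 CPM in tap and 16.7, 14.9 and 17.8 CPM in WT (-4.36 ± 0.26, adjusted p = 1e-09). OsMADS58 (LOC_Os05g11414), the second C-class gene, had 2 counts in the tap libraries and 97 in WT, 47.7-fold fewer (95% counting interval 12.8 to 399, adjusted p = 4.5e-06). Both counts lay in tap replicate 3, without which the fitted log2 difference moved from -5.33 to -8.01. The D-class gene OsMADS13 (LOC_Os12g10540), which acts in ovules, had 0 counts in tap and 30 in WT, at least 9.82-fold lower when the tap group is set to a floor of 3 counts in all (adjusted p = 0.0035). DL (LOC_Os03g11600), a YABBY-family gene needed for carpels and for the midrib of leaves, had 8.72, 13.1 and 10.2 CPM in tap and 81.5, 82.4 and 98.7 CPM in WT (-3.04 ± 0.19, adjusted p = 6.9e-09). No tap library of these 4 genes reached the lowest WT library.

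**Figure D1:**
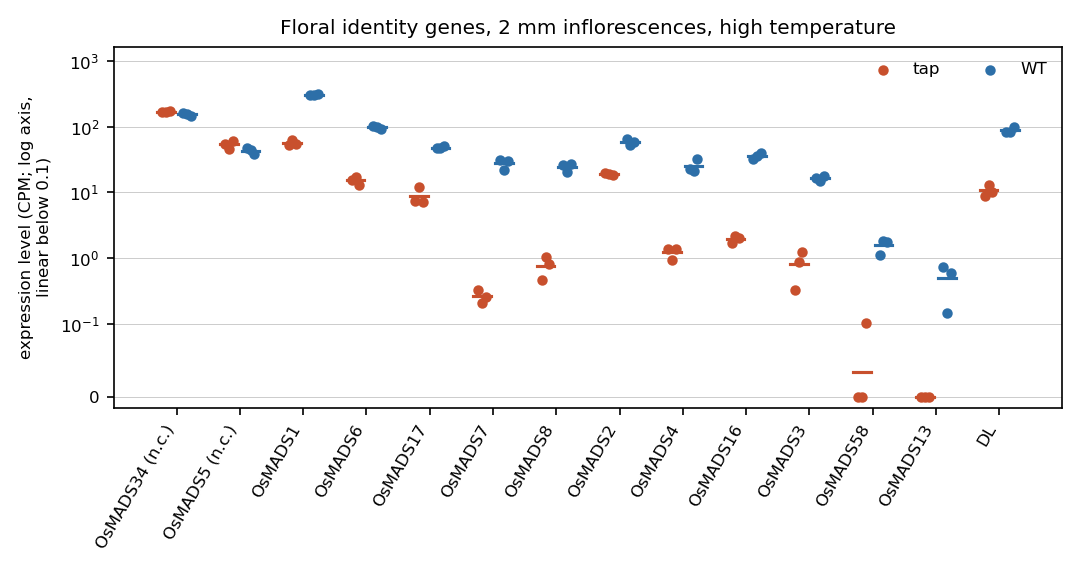
Level in CPM of 14 floral identity genes in each of the 3 tap and 3 WT libraries of 2 mm at high temperature; points are libraries, horizontal bars are means, the axis is logarithmic above 0.1 CPM and linear below it, and n.c. marks genes that were not called. The tap points of 12 genes lie below all their WT points, whereas OsMADS34 and OsMADS5 lie near their WT level.

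Of 7 AP1/FUL-, SVP- and SOC1-class MADS-box genes, which act around the change from branching to spikelets, 1 was higher and 1 lower in tap, with a median log2 difference of -0.03. The called share of 28.6% stood beside 32.86% of all loci. OsMADS14 (LOC_Os03g54160), an AP1/FUL-class gene of floral transition, had 415, 338 and 503 CPM in tap and 401, 409 and 373 CPM in WT, with overlapping groups (0.09 ± 0.13, adjusted p = 0.64). OsMADS18 (LOC_Os07g41370) had 202, 192 and 235 CPM in tap and 239, 253 and 219 CPM in WT (-0.18 ± 0.10, adjusted p = 0.20). OsMADS15 (LOC_Os07g01820) was higher, with 818 ± 90.8 CPM against 605 ± 30.5 CPM (0.44 ± 0.13, adjusted p = 0.017). Its call was lost without tap replicate 3 or WT replicate 1 (0.35 and 0.39, adjusted p = 0.085 and 0.062). OsMADS56 (LOC_Os10g39130), a SOC1-type gene, fell from 34.4 ± 4.52 to 22.1 ± 1.34 CPM (-0.64 ± 0.11, adjusted p = 0.00044). The SVP-class gene OsMADS55 (LOC_Os06g11330) had 7.88, 8.99 and 13.07 CPM in tap and 15.06, 14.3 and 15.5 CPM in WT. Its groups did not overlap and it was not called (-0.59 ± 0.33, adjusted p = 0.19), but it passed with the 6 libraries alone (adjusted p = 0.021).

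Of 10 tested regulators of branch and spikelet meristems, 3 were lower in tap (30%, beside 15.14% of all loci) and none was higher, with a median log2 difference of -0.69. These counts do not cover MOC1, APO1, SNB, OsIDS1, MFS1, ASP1, RCN1, RCN2, RCN4, EG1, REP1, DST, TB1 and DEP1. Those genes could not be checked by name and were left out. LAX1 (LOC_Os01g61480), needed to start axillary meristems, had 36.6, 42.5 and 45.3 CPM in tap and 37.1, 42.2 and 37.5 CPM in WT (0.09 ± 0.24, adjusted p = 0.80). RFL (LOC_Os04g51000), the rice LEAFY, had 92.9, 114 and 87.6 CPM in tap and 125, 108 and 103 CPM in WT (-0.19 ± 0.12, adjusted p = 0.24). Both genes had overlapping groups. FZP (LOC_Os07g47330), which sets spikelet meristem identity, averaged 2.53 ± 0.294 CPM in tap and 2.98 ± 1.31 CPM in WT (adjusted p = 0.56), and PLA1 (LOC_Os10g26340) at 475 ± 119 and 509 ± 128 CPM (adjusted p = 0.75).

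The 3 lower genes were SL1, TH1 and LAX2. SL1 (LOC_Os01g03840), a zinc finger gene of lodicule and stamen identity, had 2.13, 2.25 and 2.04 CPM in tap and 11.4, 9.55 and 12.6 CPM in WT, with the groups well apart (-2.38 ± 0.16, adjusted p = 5.4e-09). TH1 (LOC_Os02g56610), which shapes the lemma and palea, fell from 8.39 ± 0.726 to 4.19 ± 1.52 CPM (-1.01 ± 0.27, adjusted p = 0.0096). LAX2 (LOC_Os04g32510), a partner of LAX1 in axillary meristem formation, averaged 0.653 ± 0.351 CPM in tap and 1.73 ± 0.327 CPM in WT (-1.41 ± 0.41, adjusted p = 0.013), and its call was lost without tap replicate 1 or WT replicate 1 (adjusted p = 0.072 and 0.053). G1 (LOC_Os07g04670), known for sterile lemma identity, had 5.10, 17.2 and 3.11 CPM in tap and 58.0, 45.4 and 20.4 CPM in WT. The groups did not overlap, but the spread within each was wide (-2.29 ± 0.78, adjusted p = 0.052). G1 passed the threshold without tap replicate 2 or WT replicate 3 (-3.32 and -2.61, adjusted p = 0.017 and 0.048). TAW1 (LOC_Os10g33780), a brake on the change from branch to spikelet, was at 4.85 ± 0.792 and 7.995 ± 1.93 CPM (-0.72 ± 0.34, adjusted p = 0.12). It passed with the 6 libraries alone (-0.72, adjusted p = 0.015), and it was called lower at 3 mm (-1.25 ± 0.37, adjusted p = 0.017). NL1 (LOC_Os05g50270), which limits bract growth, was at 79.2 ± 19.6 and 125 ± 43.96 CPM (-0.65 ± 0.26, adjusted p = 0.072). It passed without tap replicate 2 or WT replicate 3 (adjusted p = 0.023 and 0.039). Without either of these same libraries the list had 5 called genes in place of 3.

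All 6 tested YABBY genes, which pattern lateral organs, were lower in tap, beside 15.14% of all loci, with a median log2 difference of -1.12. OsYABBY1 (LOC_Os07g06620) had 4.22, 9.30 and 6.28 CPM in tap and 71.8, 65.7 and 103 CPM in WT, a 12.2-fold fall (-3.61 ± 0.26, adjusted p = 2.3e-07). OsYABBY4 (LOC_Os02g42950) had 29.3, 52.7 and 31.9 CPM in tap and 124, 134 and 132 CPM in WT (-1.78 ± 0.19, adjusted p = 4.3e-06). OsYABBY5 (LOC_Os04g45330) had 90.0, 122 and 95.7 CPM in tap and 241, 225 and 259 CPM in WT (-1.24 ± 0.13, adjusted p = 9e-07). The groups did not overlap for any YABBY gene. OsYABBY3 (LOC_Os10g36420) fell 1.99-fold, OsYABBY6 (LOC_Os12g42610) 1.72-fold and OsYABBY2 (LOC_Os03g44710) 1.503-fold, with adjusted p from 3.6e-05 to 0.0049.

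Of 5 HD-ZIP III and KANADI genes 4 were lower at 2 mm (80% called, beside 32.86% of all loci) and none was called at 3 mm. OSHB4 could not be checked by name and was left out. The median log2 difference at 2 mm was -0.39, and OSHB5 was not called (0.06, adjusted p = 0.86). OSHB3 (LOC_Os12g41860), an HD-ZIP III factor of the adaxial (upper) organ side, had 206, 233 and 216 CPM in tap and 311, 353 and 330 CPM in WT (-0.60 ± 0.11, adjusted p = 0.0004). OSHB2 (LOC_Os10g33960) was at 124 ± 10.3 and 163 ± 11.5 CPM (-0.39 ± 0.10, adjusted p = 0.0066). OSHB1 (LOC_Os03g01890) was at 131 ± 11.1 and 162 ± 12.8 CPM (-0.30 ± 0.10, adjusted p = 0.028). The KANADI gene SLL1 (LOC_Os09g23200), of the abaxial (lower) side, was at 6.34 ± 0.439 and 8.72 ± 1.71 CPM (-0.46 ± 0.17, adjusted p = 0.048). The call of OSHB1 was lost without tap replicate 1, tap replicate 3 or WT replicate 2 (adjusted p = 0.068, 0.13 and 0.11), and each of these left 2 called genes. That of SLL1 was lost without any of these 3 or without tap replicate 2 or WT replicate 1 (-0.29 without WT replicate 1, adjusted p up to 0.24).

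**Figure D2:**
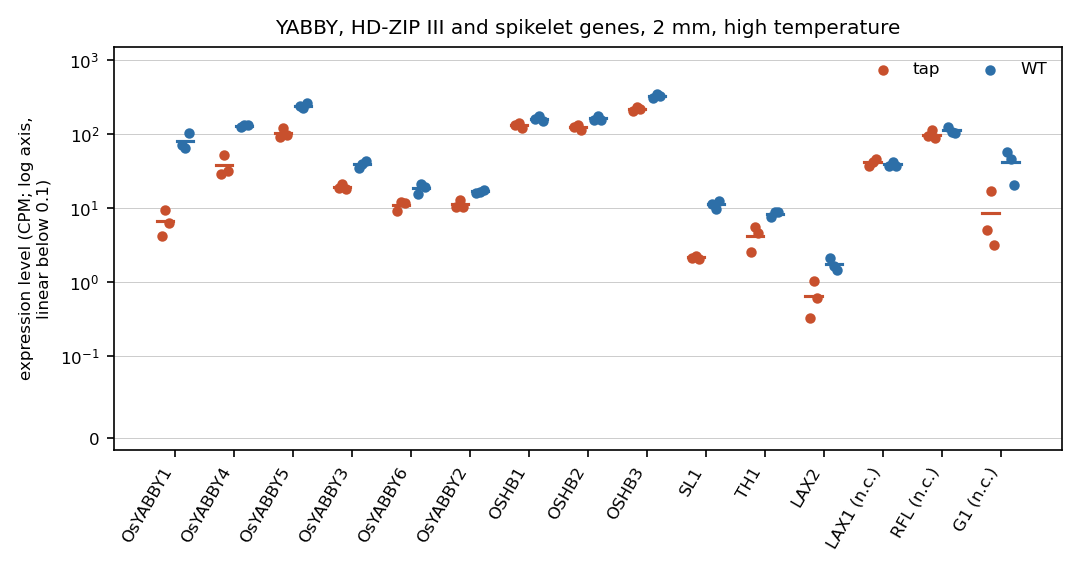
Level in CPM of 6 YABBY genes, 3 HD-ZIP III genes and 6 spikelet or branch meristem genes in each 2 mm library at high temperature; points are libraries, bars are means, the axis is logarithmic above 0.1 CPM, and n.c. marks genes that were not called. OsYABBY1 shows the widest gap, with tap libraries at 4.22 to 9.30 CPM and WT libraries at 65.7 to 103 CPM, and LAX1 and RFL overlap.

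Meristem genes of the KNOX class went both ways. Of 7 tested KNOX, CLAVATA and WOX genes 3 were higher and 2 lower in tap, beside 17.72% and 15.14% of all loci, with a median log2 difference of 0.16. TAB1 and the BELL genes qSH1 and SH5 could not be checked by name and were left out. OSH1 (LOC_Os03g51690), which maintains shoot meristems, had 600, 648 and 701 CPM in tap and 474, 583 and 456 CPM in WT (0.36 ± 0.14, adjusted p = 0.047). OSH15 (LOC_Os07g03770), a KNOX gene of internodes and meristems, had 153, 178 and 169 CPM in tap and 152, 127 and 114 CPM in WT (0.35 ± 0.12, adjusted p = 0.034). The lowest tap library lay just above the highest WT library for both genes. Their calls were lost when single libraries were left out, OSH1 without any library but WT replicate 2 (adjusted p up to 0.17) and OSH15 without tap replicate 2 or 3 or WT replicate 2 or 3 (adjusted p up to 0.16).

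WOX4 (LOC_Os04g55590), a homeobox gene of meristem maintenance in rice, averaged 3.55 ± 1.31 CPM in tap and 1.75 ± 0.520 CPM in WT (1.02 ± 0.28, adjusted p = 0.0095). Its call was lost without tap replicate 2 (0.67, adjusted p = 0.064), which left 2 called genes in the list. Without tap replicate 3 or WT replicate 3 there were 3. FON1 (LOC_Os06g50340), the CLAVATA1-like receptor that limits floral meristem size, had 16.6, 21.6 and 18.2 CPM in tap and 34.7, 36.1 and 36.7 CPM in WT, a 1.91-fold fall (-0.93 ± 0.13, adjusted p = 4.7e-05). OSH71 (LOC_Os05g03884), another KNOX gene, fell from 72.7 ± 2.58 to 54.0 ± 2.22 CPM (-0.43 ± 0.09, adjusted p = 0.0021), and its call was kept without each of the 6 libraries in turn.

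Of 8 SPL genes targeted by miR156, which promote phase change and shape panicle branching, 2 were higher in tap and none was lower, with a median log2 difference of 0.01. The called share of 25% was below the 32.86% of all loci. OsSPL3, OsSPL17 and OsSPL18 could not be checked by name and were left out. OsSPL13 (LOC_Os07g32170) had 920, 887 and 1085 CPM in tap and 402, 488 and 426 CPM in WT, with the groups far apart (1.13 ± 0.16, adjusted p = 5.7e-05). OsSPL11 (LOC_Os06g45310) had 31.0, 30.2 and 34.9 CPM in tap and 24.2, 24.5 and 23.5 CPM in WT (0.41 ± 0.12, adjusted p = 0.012). OsSPL14 (LOC_Os08g39890), the gene of ideal plant architecture, averaged 277 ± 32.8 CPM in tap and 277 ± 25.2 CPM in WT, and its groups overlapped (adjusted p = 1). The call of OsSPL11 was lost without tap replicate 3 (0.34, adjusted p = 0.073), which left 1 called gene. Without tap replicate 2 the list had 4.

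Of 15 tested cytokinin genes 6 were higher and 5 lower (73.3% called, beside 32.86% of all loci), with a median log2 difference of 0.28. OsCKX8 and OsRR3 could not be checked by name and were left out. All 6 higher genes were type-A response regulators, and the 5 lower ones were LOG and 4 cytokinin oxidases. LOG (LOC_Os01g40630), which releases active cytokinin in meristems, had 17.5, 12.9 and 14.7 CPM in tap and 27, 24.4 and 26.6 CPM in WT (-0.79 ± 0.14, adjusted p = 0.00046). Of the oxidases, which break cytokinin down, OsCKX3 (LOC_Os10g34230) had 5.10, 6.13 and 5.67 CPM in tap and 17.5, 18.3 and 19.1 CPM in WT (-1.70 ± 0.15, adjusted p = 1.2e-07). OsCKX2 (LOC_Os01g10110), known for its effect on grain number, had 0.881, 1.38 and 0.919 CPM in tap and 4.24, 3.07 and 3.47 CPM in WT (-1.76 ± 0.29, adjusted p = 0.00022). No library of tap reached the WT range for these 3 genes. OsCKX4 (LOC_Os01g71310) and OsCKX9 (LOC_Os05g31040) were also lower (-1.62 ± 0.41 and -1.56 ± 0.42, adjusted p = 0.0058 and 0.0087), from 22 and 45 counts in tap against 70 and 137 in WT. Neither would have passed the filter on low counts without the WT libraries, so only a fall could be called for them. OsCKX5 and OsCKX11 were not called (0.14 and 0.28, adjusted p = 0.65 and 0.063), but OsCKX11 passed without WT replicate 3 (0.39, adjusted p = 0.026).

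Type-A response regulators are switched on by cytokinin and dampen its signal. OsRR9 (LOC_Os11g04720) had 5.93, 5.93 and 5.92 CPM in tap and 1.56, 1.49 and 0.880 CPM in WT, a 4.51-fold rise (2.17 ± 0.24, adjusted p = 2.6e-06). OsRR10 (LOC_Os12g04500) rose 2.75-fold (1.46 ± 0.24, adjusted p = 0.00016). These 2 genes are near-identical copies on chromosomes 11 and 12, so reads could be split between them. OsRR6 (LOC_Os04g57720) had 12.3, 10.6 and 12.7 CPM in tap and 7.56, 3.02 and 3.76 CPM in WT (1.31 ± 0.27, adjusted p = 0.0016). OsRR2 (LOC_Os02g35180) was at 40.5 ± 4.21 CPM against 28.6 ± 0.513 CPM (0.50 ± 0.13, adjusted p = 0.0072). OsRR1 (LOC_Os04g36070) was at 32.4 ± 0.543 against 23.4 ± 2.17 CPM (0.47 ± 0.11, adjusted p = 0.0041). OsRR4 (LOC_Os01g72330) was at 19.4 ± 2.08 against 14.9 ± 0.883 CPM (0.39 ± 0.13, adjusted p = 0.027), and its call was lost without tap replicate 2 or 3 or WT replicate 1 or 3 (adjusted p up to 0.12). OsRR5 and OsRR7 were not called (-0.98 and 1.15, adjusted p = 0.064 and 0.29). OsRR5 passed as lower with the 6 libraries alone and without tap replicate 1 (adjusted p = 0.041 and 0.047).

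Of 7 tested auxin genes 5 were lower and 1 higher (85.7% called, beside 32.86% of all loci), with a median log2 difference of -0.59. Among the lower genes, OsPIN2 passed the filter on low counts only through WT libraries, so only a fall could be called for it. OsYUC3, OsYUC4, OsYUC5, OsYUC6, OsYUC8 and OsPIN10b could not be checked by name and were left out. OsYUC1 (LOC_Os01g45760), an auxin synthesis enzyme, had 2.87, 2.76 and 3.06 CPM in tap and 7.65, 6.67 and 8.21 CPM in WT, with the groups clearly apart (-1.37 ± 0.18, adjusted p = 1.5e-05). FIB (LOC_Os01g07500), the rice TAA1-type enzyme of the step before it, was at 14.3 ± 2.51 and 21.2 ± 5.28 CPM with overlapping groups (-0.57 ± 0.18, adjusted p = 0.024).

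The auxin carriers went both ways. OsPIN1a (LOC_Os06g12610) had 7.19, 9.71 and 6.99 CPM in tap and 14.5, 15.9 and 14.5 CPM in WT (-0.91 ± 0.14, adjusted p = 0.00014). OsPIN10a (LOC_Os01g45550) had 24.8, 27.03 and 24.3 CPM in tap and 10.9, 11.2 and 9.24 CPM in WT, a 2.43-fold rise (1.28 ± 0.13, adjusted p = 1.5e-06). OsPIN1b was not called (-0.01, adjusted p = 0.93). OsPIN2 (LOC_Os06g44970) had 1 count in tap and 33 in WT, 32.4-fold fewer (counting interval 5.43 to 1319, adjusted p = 0.0036). Without tap replicate 2, which held that count, the fitted log2 difference moved from -4.58 to -6.46. OsPID (LOC_Os12g42020), the kinase that directs auxin carriers and acts in flower formation, was at 30.1 ± 6.43 and 45.5 ± 3.99 CPM (-0.59 ± 0.18, adjusted p = 0.020). The calls of FIB and OsPID were lost without tap replicate 1 or WT replicate 3, that of FIB also without WT replicate 1 and that of OsPID also without tap replicate 3 (adjusted p up to 0.12 and 0.076).

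**Figure D3:**
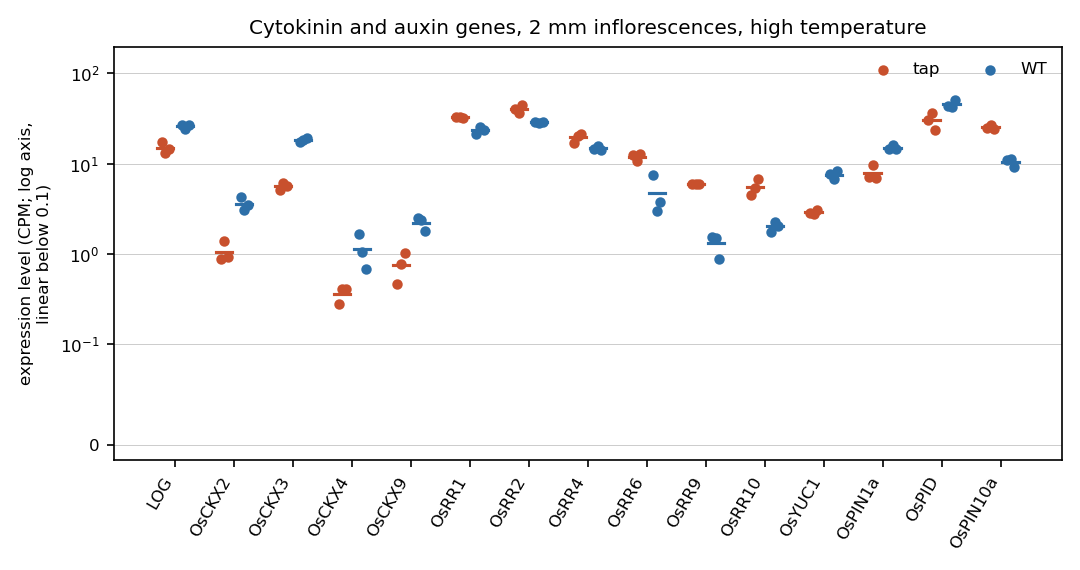
Level in CPM of 11 cytokinin genes (LOG to OsRR10) and 4 auxin genes in each 2 mm library at high temperature; points are libraries, bars are means, and the axis is logarithmic above 0.1 CPM. Every gene drawn was called: LOG, the 4 CKX genes, OsYUC1, OsPIN1a and OsPID have their tap points below the WT points, and the 6 OsRR genes and OsPIN10a have them above.

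Of 7 gibberellin genes 2 were higher and 1 lower (42.9% called, near the 32.86% of all loci), with a median log2 difference of 0.09. OsCPS1 (LOC_Os02g17780), the first enzyme of gibberellin synthesis, averaged 3.20 ± 0.477 CPM in tap and 1.598 ± 0.602 CPM in WT (1.00 ± 0.28, adjusted p = 0.012). The F-box gene GID2 (LOC_Os02g36974) was higher and the receptor gene GID1 (LOC_Os05g33730) lower (0.39 ± 0.12 and -0.37 ± 0.12, adjusted p = 0.020 and 0.028). The name entry used for LOC_Os02g36974 carries the symbol GF14E beside GID2, so its counts cannot be assigned to the F-box gene with certainty. SLR1 (LOC_Os03g49990), the DELLA repressor of the pathway, was at 281 ± 39.4 and 271 ± 10.8 CPM (adjusted p = 0.74). No gibberellin gene was called without WT replicate 3 (adjusted p = 0.065 for OsCPS1, 0.052 for GID2 and 0.12 for GID1). The call of OsCPS1 was also lost without tap replicate 1 (0.054), that of GID2 without tap replicate 3 or WT replicate 1 (0.064 and 0.08) and that of GID1 without tap replicate 1 or 2 or WT replicate 2 (adjusted p up to 0.073). Only 1 gene was called without tap replicate 1.

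Of 9 brassinosteroid and strigolactone genes 1 was called, 11.1% beside 32.86% of all loci. This was D11 (LOC_Os04g39430), a brassinosteroid synthesis enzyme, with 79.1 ± 2.63 CPM in tap and 102 ± 9.93 CPM in WT (-0.36 ± 0.10, adjusted p = 0.0097). Its call was lost without WT replicate 1 (-0.28, adjusted p = 0.052). The receptor gene OsBRI1 (LOC_Os01g52050) was at 545 ± 44.5 and 621 ± 33.9 CPM (adjusted p = 0.19). Of 11 jasmonate genes 2 were lower (18.2%, near the 15.14% of all loci), both JAZ repressors of the pathway, with a median log2 difference of -0.24. OsJAZ7 (LOC_Os07g42370) had 53.2, 52.0 and 51.5 CPM in tap and 105, 95.6 and 91.5 CPM in WT (-0.90 ± 0.10, adjusted p = 2.5e-06). OsJAZ8 (LOC_Os09g26780) was at 31.1 ± 3.17 and 41.3 ± 0.950 CPM (-0.41 ± 0.11, adjusted p = 0.0088). The call of OsJAZ8 was lost without tap replicate 3 (adjusted p = 0.053), which left 1 called gene, and without tap replicate 2 the list had 4.

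Of 20 heat shock factor genes 1 was higher and 4 lower, beside 17.72% and 15.14% of all loci, with a median log2 difference of -0.20. OsHsfA3 (LOC_Os02g32590) had 25.9, 34.96 and 24.3 CPM in tap and 11.9, 17.42 and 18.9 CPM in WT (0.82 ± 0.17, adjusted p = 0.0015). OsHsfC2a (LOC_Os02g13800) had 6.07, 4.45 and 7.10 CPM in tap and 15.01, 22.4 and 13.9 CPM in WT (-1.54 ± 0.27, adjusted p = 0.00042). OsHsfB2a (LOC_Os04g48030) had 5.75, 6.70 and 6.94 CPM in tap and 13.6, 15.4 and 11.97 CPM in WT (-1.08 ± 0.18, adjusted p = 0.00021). These groups did not overlap. OsHsfA2c (LOC_Os10g28340) and OsHsfB2b (LOC_Os08g43334) were lower at the edge of the threshold (-1.04 ± 0.35 and -0.65 ± 0.24, adjusted p = 0.042 and 0.047). The call of OsHsfA2c was lost without any 1 of the 6 libraries and that of OsHsfB2b without any but WT replicate 1 (adjusted p up to 0.11 and 0.16). The list therefore had 3 called genes when tap replicate 1, 2 or 3 or WT replicate 2 or 3 was left out.

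Of 13 small heat shock protein and chaperone genes 2 were higher and 5 lower (53.85% called, beside 32.86% of all loci), with a median log2 difference of -0.52. Hsp24.1 (LOC_Os02g52150) had 85.2, 101 and 97.5 CPM in tap and 12.4, 26.69 and 27.1 CPM in WT (2.098 ± 0.61, adjusted p = 0.029). Hsp18.0 (LOC_Os03g16030) had 32.5, 25.7 and 35.2 CPM in tap and 63.3, 140 and 126 CPM in WT (-1.82 ± 0.53, adjusted p = 0.029). In both genes WT replicate 1 had the lowest WT level. Hsp16.9A (LOC_Os01g04370) and Hsp16.9B (LOC_Os01g04380) were lower on 20 and 9 counts in tap against 177 and 237 in WT (adjusted p = 0.029 and 0.019). These genes and Hsp16.9C are adjacent, closely related copies, as are Hsp17.4, Hsp17.7, Hsp17.9A and Hsp18.0 on chromosome 3, so reads could be split within each cluster. Hsp17.9A (LOC_Os03g15960) was at 143 ± 24.03 and 352 ± 121 CPM and was not called (-1.30 ± 0.46, adjusted p = 0.058). It passed without WT replicate 1 (-1.56, adjusted p = 0.043) and with the 6 libraries alone (-1.30, adjusted p = 0.0087).

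Among the larger chaperones, OsClpB-m (LOC_Os02g08490) was higher, at 96.1 ± 0.813 against 56.5 ± 4.25 CPM (0.77 ± 0.22, adjusted p = 0.018). OsClpB-c (LOC_Os03g31300) was lower, at 39.6 ± 4.47 against 56.9 ± 6.01 CPM (-0.52 ± 0.15, adjusted p = 0.016). OsBiP1 (LOC_Os02g02410), the chaperone of the endoplasmic reticulum, was at 227 ± 19.8 and 280 ± 0.265 CPM (-0.30 ± 0.10, adjusted p = 0.024). OsHSP101 (LOC_Os05g44340), known for heat tolerance, was at 33.4 ± 5.19 and 72.6 ± 23.5 CPM and was not called (-1.12 ± 0.66, adjusted p = 0.23). With the 6 libraries alone it was called lower at the same fold (adjusted p = 0.0071). Its 3 mm WT libraries, which share the model, ranged from 20.96 to 167 CPM. Every called gene of the list lost its call without at least 1 library, Hsp24.1 without any 1 of the 6 (adjusted p up to 0.09). Those of OsClpB-m were WT replicates 1 and 3, and those of OsClpB-c tap replicates 1 and 3 and WT replicate 1. The call was lost for Hsp18.0 without any but WT replicate 1, for OsBiP1 without any but tap replicate 3, for Hsp16.9A without any but tap replicate 2 or WT replicate 1 and for Hsp16.9B without any but WT replicate 1 or 3 (adjusted p over these genes 0.051 to 0.11). The list had 1 called gene without tap replicate 1, 3 without tap replicate 2 and 2 without tap replicate 3, WT replicate 2 or WT replicate 3.

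Of 9 clock and flowering time genes 2 were higher and 2 lower (44.4% called, beside 32.86% of all loci), with a median log2 difference of 0.03. OsLHY (LOC_Os08g06110), a morning gene of the clock, had 203, 149 and 216 CPM in tap and 559, 551 and 397 CPM in WT, with the groups well apart (-1.41 ± 0.19, adjusted p = 5.7e-05). OsGI (LOC_Os01g08700), an evening gene, had 864, 976 and 681 CPM in tap and 499, 431 and 599 CPM in WT (0.72 ± 0.15, adjusted p = 0.0015). OsPRR1 (LOC_Os02g40510), the rice TOC1, was at 78.4 ± 3.49 and 61.1 ± 4.22 CPM (0.36 ± 0.11, adjusted p = 0.015). OsELF3-1 (LOC_Os06g05060), of the evening complex, was at 52.8 ± 4.62 and 64.3 ± 5.12 CPM (-0.29 ± 0.10, adjusted p = 0.040). The calls of OsPRR1 and OsELF3-1 were lost without tap replicate 1, which left 2 called genes. That of OsPRR1 was also lost without tap replicate 3 or WT replicate 2 (adjusted p up to 0.09) and that of OsELF3-1 without tap replicate 2 or WT replicate 1 or 3 (adjusted p up to 0.14). The sources used here do not state the hour of harvest of each group, and its part in these differences was not tested.

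Growth-regulating factors, which promote cell proliferation in growing organs, included 2 higher and 1 lower gene among 8 (37.5% called, near the 32.86% of all loci). OsGRF1 (LOC_Os02g53690) had 202, 225 and 241 CPM in tap and 146, 145 and 144 CPM in WT (0.62 ± 0.10, adjusted p = 0.00019). OsGRF4 (LOC_Os02g47280), known for grain size, was at 281 ± 16.88 and 194 ± 11.3 CPM (0.54 ± 0.13, adjusted p = 0.0037). OsGRF7 (LOC_Os12g29980) fell from 174 ± 3.81 to 121 ± 12.6 CPM (-0.53 ± 0.12, adjusted p = 0.0028). The median log2 difference of the list was 0.07, near that of all loci.

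Of 12 anther and early meiosis genes 1 was higher and 4 lower (41.7% called, near the 32.86% of all loci), with a median log2 difference of -0.26. MEL1 (LOC_Os03g58600), the Argonaute of germ cells, had 20.6, 25.8 and 17.6 CPM in tap and 45.9, 42.9 and 49.9 CPM in WT (-1.11 ± 0.13, adjusted p = 4.8e-06). MSP1 (LOC_Os01g68870), the receptor kinase that limits the number of sporocytes, had 271, 326 and 234 CPM in tap and 450, 505 and 430 CPM in WT (-0.74 ± 0.13, adjusted p = 0.00037). Both genes were separated without overlap. TDL1A (LOC_Os12g28750), the ligand of MSP1, averaged 7.96 ± 0.720 CPM in tap and 5.79 ± 1.01 CPM in WT (0.46 ± 0.16, adjusted p = 0.037). The meiosis genes PAIR1 (LOC_Os03g01590) and PAIR3 (LOC_Os10g26560) were lower (-0.50 ± 0.14 and -0.58 ± 0.19, adjusted p = 0.0092 and 0.031). The call of TDL1A was lost without any library but WT replicate 3, that of PAIR3 without any but tap replicate 1 or WT replicate 2, and that of PAIR1 without WT replicate 1 (adjusted p up to 0.14, 0.11 and 0.052). The list had 3 called genes without tap replicate 2 or 3 and 2 without WT replicate 1.

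Of 14 replication and cell cycle genes 7 were lower (50%, beside 15.14% of all loci) and none was higher, with a median log2 difference of -0.30. ORC1 (LOC_Os06g08790), of the origin recognition complex, had 57.2, 49.8 and 58.8 CPM in tap and 97.6, 73.4 and 79.6 CPM in WT (-0.60 ± 0.12, adjusted p = 0.001). The replicative helicase genes MCM2, MCM3, MCM5, MCM6 and MCM7 were lower by log2 differences of -0.38 to -0.57 (adjusted p = 0.0093 to 0.036). WT replicate 1 had the highest level of each of these 6 genes, and without it ORC1 was the 1 gene of the list still called (log2 differences of the MCM genes -0.21 to -0.39, adjusted p = 0.059 to 0.23). Without tap replicate 3 there were 2 called genes, and the calls of MCM2, MCM3, MCM5 and MCM6 were lost (adjusted p = 0.072 to 0.15). That of MCM2 was also lost without tap replicate 2 and that of MCM6 without tap replicate 1 (0.059 and 0.06). The mitotic cyclin CYCB2-2 (LOC_Os06g51110) was lower (-0.33 ± 0.10, adjusted p = 0.023) and lost its call without tap replicate 1 or 3 or WT replicate 1 or 3 (adjusted p up to 0.1). PCNA was not called, at 389 ± 4.12 and 409 ± 21.2 CPM (adjusted p = 0.63).

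Of 9 small RNA genes 5 were lower and 1 higher (66.7% called, beside 32.86% of all loci), with a median log2 difference of -0.47. OsDCL1, OsDCL3a and OsDCL3b could not be checked by name and were left out. OsAGO1b (LOC_Os04g47870), a main Argonaute of miRNAs, had 616, 629 and 521 CPM in tap and 1228, 1208 and 999 CPM in WT (-0.96 ± 0.13, adjusted p = 2.1e-05). OsAGO4a (LOC_Os01g16870), of RNA-directed DNA methylation, had 559, 586 and 542 CPM in tap and 1084, 937 and 937 CPM in WT (-0.81 ± 0.11, adjusted p = 1.7e-05). These were falls of 1.95-fold and 1.75-fold, with no overlap between groups. OsAGO1a (LOC_Os02g45070), OsRDR2 (LOC_Os04g39160) and OsAGO7 (LOC_Os03g33650), the Argonaute of tasiRNA formation, were lower by 0.47 to 0.63 on the log2 scale (adjusted p = 0.0012 to 0.0039). OsAGO18 (LOC_Os07g28850) was higher, at 21.8 ± 3.44 against 13.6 ± 2.33 CPM (0.68 ± 0.16, adjusted p = 0.0031).

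Of the 5 leaf genes with a checked name, 2 were higher and 1 lower (60% called, beside 32.86% of all loci). Their median log2 difference was 0.52, while the summed levels of these same genes overlapped between genotypes. RCA (LOC_Os11g47970), rubisco activase, had 7.23, 10.6 and 7.66 CPM in tap and 3.802, 4.90 and 2.83 CPM in WT (1.14 ± 0.23, adjusted p = 0.0014). GLK2 (LOC_Os01g13740), a chloroplast regulator, was at 12.9 ± 0.179 and 8.13 ± 1.20 CPM (0.67 ± 0.15, adjusted p = 0.0033). CHLH (LOC_Os03g20700), of chlorophyll synthesis, was at 22.5 ± 2.95 and 32.1 ± 2.84 CPM (-0.51 ± 0.15, adjusted p = 0.016). Its call was lost without tap replicate 1 or 3 or WT replicate 2 (adjusted p up to 0.068). Of 5 defence and oxidative stress genes 1 was lower and 1 higher (40% called, near the 32.86% of all loci). NH1 (LOC_Os01g09800), the rice NPR1 of salicylic acid signalling, had 13.7, 9.71 and 11.6 CPM in tap and 26.4, 22.8 and 25.4 CPM in WT (-1.09 ± 0.13, adjusted p = 5.4e-06). OsAPX1 (LOC_Os03g17690), an ascorbate peroxidase, was at 2682 ± 236 and 1918 ± 331 CPM (0.48 ± 0.15, adjusted p = 0.023). Its call was lost without tap replicate 2 or 3 or WT replicate 1 or 3 (adjusted p up to 0.11), each of which left 1 called gene. OsAPX2 (LOC_Os07g49400) was at 322 ± 27.4 and 240 ± 40.3 CPM (0.42 ± 0.18, adjusted p = 0.078) and passed without WT replicate 2 (adjusted p = 0.044) and with the 6 libraries alone (0.022). The single tested root and grain gene, the silicon transporter LSI1 (LOC_Os02g51110), was not called on 80 counts in tap and 57 in WT (adjusted p = 0.42). Without WT replicate 2 it passed (1.57, adjusted p = 0.021).

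**Figure D4:**
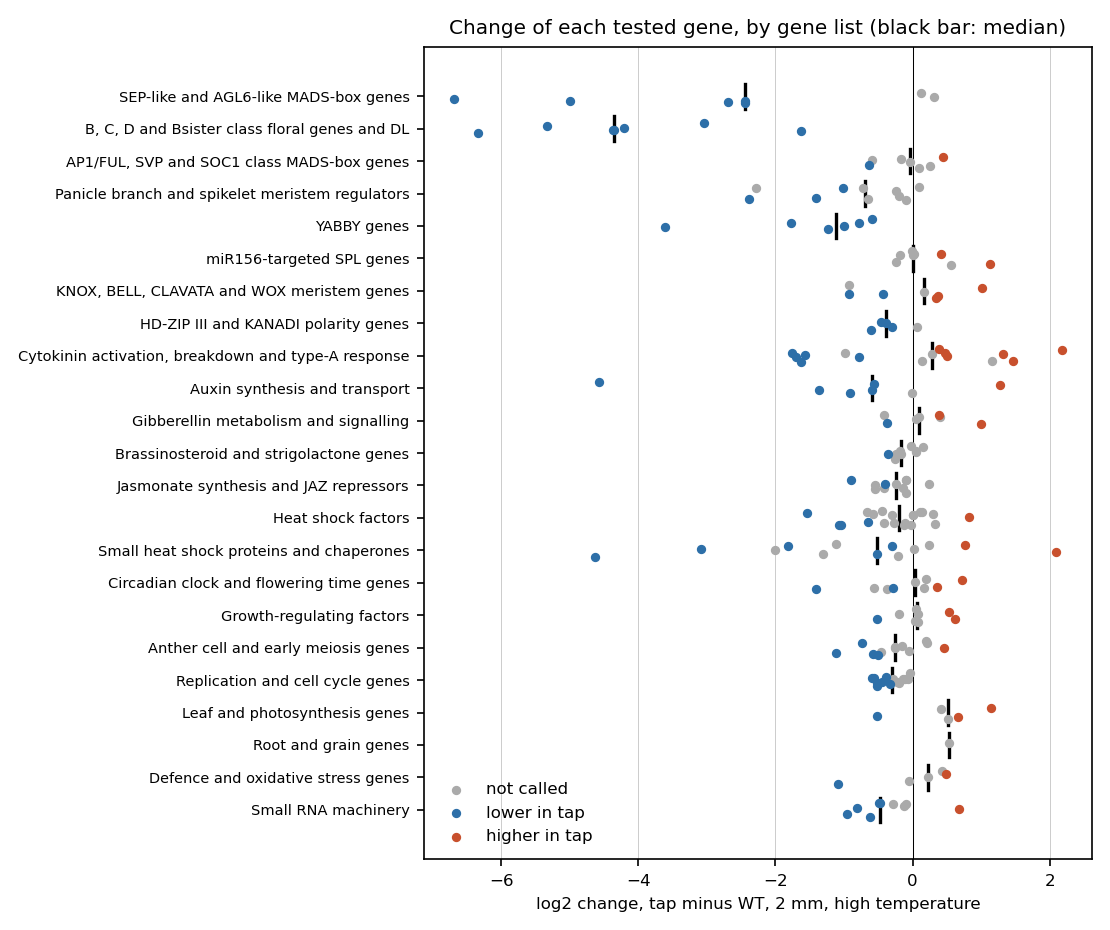
Log2 difference of tap and WT at 2 mm and high temperature for each of the 202 tested genes, with 1 row per list; each point is a gene, coloured by its call, and the black bar is the median of the list. The 2 rows of floral identity genes at the top reach log2 differences of -6.68 and -6.33, while most other rows lie between -2 and 2.

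Of the 214 listed genes in the table, 12 did not pass the filter on low counts, with means of at most 0.501 CPM in both groups. Of the loci to which no name was given, those called, with a mean of at least 5 CPM in 1 group and no overlap between groups, were ranked by the fitted log2 difference. The largest rises were those of LOC_Os07g36290, with 2704 counts in tap and 0 in WT (at least 917-fold higher), and LOC_Os08g05970, with 767 and 0 counts (at least 260-fold higher). The largest falls were those of LOC_Os01g06510 and LOC_Os03g45220, with 0 counts in tap and 413 and 370 in WT (at least 135-fold and 121-fold lower). At high temperature these loci passed the filter on low counts only through the genotype where each was high. Only a change in that direction could therefore be called. Each was called in the same direction at 3 mm and high temperature and at 2 mm and low temperature. Their fitted log2 differences at low temperature were 5.785, 6.364, -7.113 and -5.072, in the order given.

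The genotypes were also compared at 3 mm and high temperature. Those 6 libraries were in the same model, so both comparisons share the filter and the estimate of the spread but no library of the groups compared. At 3 mm 7149 loci (33.41%) were called, 17.86% higher and 15.55% lower in tap. Of the 27 listed genes higher at 2 mm, 21 were also called higher at 3 mm and none lower, and of the 72 lower genes 50 were also called lower and 2 higher. Among all loci, 67.1% of the higher and 62.0% of the lower ones at 2 mm were called in the same direction at 3 mm. All 12 floral identity genes lower at 2 mm were lower at 3 mm, as were all 6 YABBY genes. Other lists had other counts at the 2 lengths. Of the 5 HD-ZIP III and KANADI genes 4 were called lower at 2 mm and none at 3 mm, and of the 14 replication and cell cycle genes 7 were lower at 2 mm, against 1 lower and 2 higher at 3 mm. Heat shock factors had 4 lower genes at 2 mm and 10 at 3 mm, and the leaf genes, 2 higher and 1 lower at 2 mm, were all 5 higher at 3 mm. No gene of the HD-ZIP III, replication or leaf lists passed the test of the difference between lengths, and 1 heat shock factor did. The difference itself departed between lengths at 48 loci (0.2243%), of which 3 were listed genes. OsMADS6 fell by 2.69 on the log2 scale at 2 mm and by 1.51 at 3 mm, with mean levels of 15.2 and 33.4 CPM in tap (adjusted p of the difference 0.0085). OsLHY was lower in tap at 2 mm and higher at 3 mm (-1.41 and 0.71, adjusted p = 0.0044), while its WT mean was 503 CPM at 2 mm and 55.4 CPM at 3 mm. OsHsfC1b (LOC_Os01g53220) was not called at 2 mm and was lower at 3 mm (-0.28 and -1.76, adjusted p of the difference 0.021).

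At low temperature the same genotypes differed at fewer loci, 3542 of 23658 (14.97%), with 7.668% higher and 7.304% lower in tap. Every row of the deposited table holds at least 10 counts over the low-temperature libraries, and no label says that both temperatures were processed together, so temperature and set cannot be told apart. Of the 27 genes higher at high temperature 14 were also higher at low temperature and 3 lower, and of the 72 lower genes 14 were also lower and 9 higher. Among all loci, 14.03% of the higher and 9.91% of the lower ones were called in the same direction at low temperature. The genotype difference departed between temperatures at 6344 loci (26.82%). Among the called genes of the lists this was so for 11 of the 27 higher and 58 of the 72 lower ones, beside 57.2% and 66.1% of all loci called higher and lower.

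At low temperature OsMADS1, OsMADS6, OsMADS17, OsMADS3 and DL were not called (log2 differences 0.24, 0.04, 0.07, -0.48 and -0.28), and the test of the difference between temperatures passed for each (adjusted p = 1.6e-09 or less). OsMADS7 and OsMADS8 were lower at low temperature as well, by less (-1.89 and -0.73), as were OsMADS2, OsMADS4, OsMADS16, OsMADS58 and OsMADS13 (-0.46 to -2.36). For all 7 the difference between temperatures was called (adjusted p at most 0.013). Of the YABBY genes OsYABBY3 alone was called at low temperature (-0.41, adjusted p = 0.0077), and all 6 passed the test of the difference (adjusted p at most 0.034). MEL1 was lower by a similar amount at both temperatures (-1.11 and -1.30), with no difference called (adjusted p = 0.60).

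**Figure D5:**
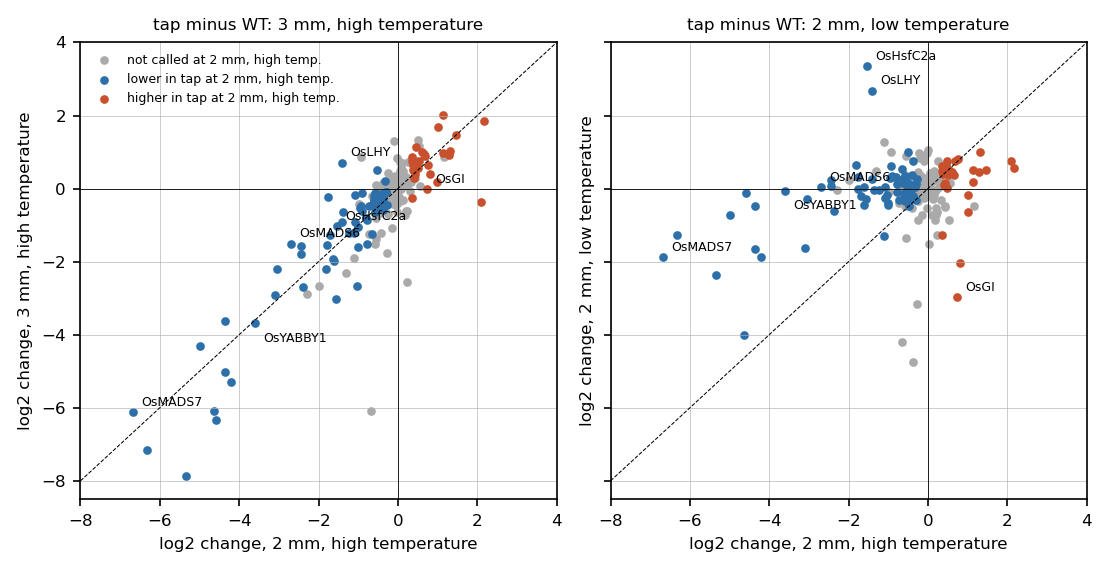
Log2 difference of tap and WT for each tested listed gene, with 2 mm at high temperature on the horizontal axis and 3 mm at high temperature (left) or 2 mm at low temperature (right) on the vertical axis; points are genes, coloured by their call at 2 mm and high temperature, and the dashed line marks equal differences. At 3 mm many points lie near the line, with OsMADS7 at -6.68 and -6.11. Some lie away from it, among them OsHsfA2a at -0.67 and -6.09 and OsCKX2 at -1.76 and -0.24. At low temperature many lie near 0, with OsYABBY1 at -3.61 and -0.06 and OsHsfC2a at -1.54 and 3.35.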

How the data were processed

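The authors deposited raw counts of reads per gene identifier, with no normalization, in 1 table of 26480 loci for the whole series. Per the submitters' processing notes the tools were Trimmomatic, HISAT2 and HTSeq with the build IRGSP-1.0; the sources used here give neither versions nor the strand setting, so overlapping genes and their antisense partners cannot be told apart. Per the labels' protocols, RNA was taken with an RNeasy kit and libraries made with a SMARTER mRNA-Seq kit. The 2 mm and 3 mm mutant columns at high temperature carry the name iHT and were matched to the tap samples of the same length and number.

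Counts were tested with edgeR 4.0.16 (TMM, filterByExpr, robust quasi-likelihood F test) in R 4.3.3, with limma 3.58.1, over the 12 high-temperature libraries with 1 mean per group and Benjamini-Hochberg adjustment. The test of the temperature difference used all 24 libraries. The procedure was also run on simulated counts, and no result here rests on that run. Those counts were drawn independently for each library with the spread fitted by the same model. The run could therefore not show how the test behaves where libraries share variation. At loci of at least 5 CPM the median SE of the log2 difference was 0.136. DESeq2 1.42.0 and the other alternatives are reported at the end. For 70 loci no value was given at high temperature.

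The table does not pair identifiers with names, and the RefSeq name table (assembly ASM3414082v1) held none of them directly (0 of 26480). Names follow published MSU assignments recalled for 306 genes and were used where RefSeq has that symbol or synonym on the chromosome, and within 500 kb of the position, that the identifier implies. That held for 226 genes (median gap 25.2 kb), of which 214 were in the table and 202 were tested. The other 80 had no entry and were left out. Members and lists were chosen with earlier results of these data known. Genes named are called members with a log2 difference of at least 0.5 and a group mean of 1 CPM or more, up to 6 per list and direction, or else the highest-expressed members. A further 38 (among them OsMADS34, OsMADS5, OsMADS13, LAX1, RFL, G1, OSH1, OsRR1, OsPIN2 and MCM2) were added after their values were seen. Counting intervals (95%, exact binomial) and floors (3 counts over a group) cover counting error only. Levels, tests and figures used no sequence.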

Additional observations from a re-analysis of the deposited data

Results flagged for a closer look

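The difference between tap and WT departed between 2 mm and 3 mm at high temperature at 48 loci, by a test of the difference itself. Among the listed genes the log2 difference at 2 mm minus that at 3 mm was -1.19 for OsMADS6, 1.48 for OsHsfC1b and -2.12 for OsLHY.

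The same test between high and low temperature at 2 mm was passed by 6344 loci. Genes of the lists called with opposite signs at high and low temperature, and whose difference passed, had these values of the log2 difference at high minus low temperature. Higher in tap at high and lower at low temperature were OsHsfA3 (2.84), OsPRR1 (1.63) and OsGI (3.68). Lower in tap at high and higher at low temperature were OsMADS56 (-0.92), FON1 (-1.58), D11 (-1.14), OsJAZ7 (-1.22), OsJAZ8 (-0.79), OsHsfC2a (-4.91), OsLHY (-4.10), CHLH (-1.54) and OsAGO4a (-1.14). Temperature and set of libraries cannot be told apart in these values.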

How the results depend on the processing

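The number of loci called between tap and WT was 7030, and 1512 when tested against a 1.5-fold change, 6981 to 8752 under RLE scaling, no filter, DESeq2, the 6 libraries alone and all 24 libraries, and 4867 to 7159 with 1 library left out. For the difference between lengths (48) the values were 8 against 1.5-fold, 280 with DESeq2 and 17 to 159 with 1 library left out; for that between temperatures (6344), 1467 against 1.5-fold and 5185 to 6691. With the replicate block the counts were 7856, 100 and 6524. Same-numbered libraries of tap and WT at 2 mm correlated at 0.287, 0.286 and 0.009, and different-numbered ones at -0.314 to 0.137. At 3 mm the same-numbered values were 0.2505, 0.2311 and -0.1255, and the different-numbered ones -0.389 to 0.372. Whether the numbers pair the libraries was not settled, and the main model does not pair them. Of 103 called genes and loci followed, 63 kept their call under all 12 alternatives. OsMADS13 and OsPIN2 kept it under 11 and had no value with the 6 libraries alone, where they did not pass the filter; the other 38 lost it without at least 1 library. Of those named, OSH1, OsHsfA2c and TDL1A also lost it without the filter, OSH1 under RLE, Hsp18.0, OsHsfB2b and SLL1 under the block, OsELF3-1, SLL1 and TDL1A with 6 libraries, and OsHsfA2c and OsHsfB2b with 24. Of the genes not called, those that passed with the 6 libraries alone were OsHSP101 (adjusted p = 0.0071), Hsp17.9A (0.0087), TAW1 (0.015), OsMADS55 (0.021), OsAPX2 (0.022) and OsRR5 (0.041). With the block these were NL1 (0.00097), OsAPX2 (0.0046), OsMADS55 (0.013), TAW1 (0.017), OsCKX11 (0.039) and G1 (0.041), with 24 libraries G1 (0.0041), Hsp17.9A (0.015), OsJAZ1 (0.022), NL1 (0.025), OsMADS5 (0.027) and OsCKX11 (0.031), and with DESeq2 G1 (0.0084) and Hsp17.9A (0.019). Signs turned only at genes not called: OsSPL14 was at 0.000 with 6 libraries, and with 1 library left out the log2 differences ranged from -0.109 to 0.061 for OsSPL14, -0.068 to 0.124 for SLR1, -0.075 to 0.136 for OsBZR1, -0.076 to 0.215 for OsMADS14, -0.075 to 0.048 for OsSPL12, -0.211 to 0.09 for CatB, -0.058 to 0.045 for OsPIN1b, -0.061 to 0.468 for OsCKX5, -0.088 to 0.221 for OSHB5, -0.312 to 0.044 for PLA1 and -0.457 to 0.18 for FZP.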
